A study of Arabidopsis thaliana with 25 samples.

Results

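MPK6ox is an Arabidopsis thaliana genotype of the Col-0 background that carries a 35s::MPK6 T-DNA insertion, a constitutive promoter driving the mitogen-activated protein kinase MPK6. Its shoots were compared here with wild-type (WT) shoots, hypoxia and normoxia together, with treatment as a covariate. The comparison rested on 8 of the 25 arrays of the series, 4 of MPK6ox shoots and 4 of WT shoots, each as 2 hypoxia and 2 normoxia arrays. The remaining arrays were shoots of mpk6, a T-DNA knockout of the gene, and roots of the 3 genotypes. All were 10-day-old seedlings grown on plates with sucrose. Hypoxia was given in 99.998% argon and normoxia was a mock treatment in an open box. The protocol in the labels states 2 h of treatment, but 9 h stands in the source names given for hypoxia, and the sources used here do not settle which applied. The labels do not say how many independent transgenic lines MPK6ox stands for, so MPK6 overexpression and effects of a single line cannot be told apart. The gene MPK6 itself was not analysed here, so its overexpression was not checked on these arrays.

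MPK6 is one of the best studied plant mitogen-activated protein kinases. It is phosphorylated by upstream kinases and in turn phosphorylates transcription factors and enzymes, and it is known for roles in immunity, ethylene and stress signalling, stomatal patterning and embryo development. Seeds of Arabidopsis fill with storage proteins, oil and late embryogenesis abundant (LEA) proteins, and the seedling uses up these reserves after germination while the corresponding genes are shut off. Phenylpropanoid enzymes supply lignin and soluble phenolics, and osmotins, peroxidases and defensins are typical products of stress and pathogen responses.

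Each value is a deposited log2 expression value of a probe set on an Affymetrix ATH1 array, and a change is the MPK6ox mean minus the WT mean on that scale. The 8 arrays had medians between 6.901 and 6.986, and replicate arrays had correlations of 0.988 to 0.992 over the probe sets. The 8 measured photosynthesis genes averaged 13.27 to 13.47 in MPK6ox shoot arrays and 13.26 to 13.42 in WT shoot arrays. The 3 measured root markers averaged 8.23 to 8.38 in MPK6ox shoots and 8.21 to 8.27 in WT shoots. The hypoxia labels could be checked on 21 genes of a low-oxygen response list. In MPK6ox shoots these averaged 10.88 and 11.11 in hypoxia against 7.05 and 7.13 in normoxia, and in WT shoots 10.78 and 10.89 in hypoxia against 6.96 and 7.02 in normoxia. All 21 were higher in both hypoxia arrays than in both normoxia arrays in either genotype. The log2 excess of 3′ over 5′ probe sets of GAPDH, a sign of RNA quality, was 2.62 to 2.99 in MPK6ox and 2.81 to 2.88 in WT. For ubiquitin it was 1.44 to 1.57 in MPK6ox and 1.45 to 1.56 in WT. Actin spread further, from 2.36 to 3.15 in MPK6ox and from 2.505 to 3.26 in WT. Within every group of these arrays the actin excess was higher in replicate 2 than in replicate 1.

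The largest falls in MPK6ox shoots included transcripts known from seeds. M17, which encodes a LEA-type seed protein, was 86.5-fold lower in MPK6ox than in WT, and BGLU19, a beta-glucosidase, was 45.3-fold lower. Isocitrate lyase, 2 vacuolar processing enzymes, the defensin PDF2.1 and several LEA genes were also lower. Higher in MPK6ox were CYP71B22, a cytochrome P450, by 8.09-fold, the class III peroxidase Prx37 by 7.30-fold, the osmotin-like OSM34 by 6.46-fold and the subtilase SBT3.3 by 5.39-fold. The lists of photosynthesis, low-oxygen and root marker genes had no member that passed the test. This is no result about them, since 1.56% of all probe sets were called.

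In the limma fit across 22746 probe sets, 354 passed an adjusted p of 0.05, which is 1.56% of those tested. Of these, 208 (0.914%) were higher and 146 (0.642%) were lower in MPK6ox. The falls reached further than the rises: 105 of the lower and 92 of the higher probe sets changed at least 2-fold, and 32 of the lower and 2 of the higher changed at least 8-fold. In all 354 both MPK6ox arrays lay on the same side of both WT arrays in hypoxia and again in normoxia, a pattern that 8.86% of all tested probe sets had. The calls were made on the same arrays, so this separation largely follows from the calling and adds no support to it. Exactly 1 gene was annotated for 189 of the 354, 102 higher and 87 lower. The 15 largest rises and 15 largest falls named below come from these. No overlap within either treatment was a condition for choosing them, so its mention below adds no support, for them or for other called genes. Over all tested probe sets the lowest change was -7.18, at a probe set outside these 189. A fit with the replicate number as a block called 709 probe sets and included all 354. The median change over all tested probe sets was 0.004.

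**Figure D1:**
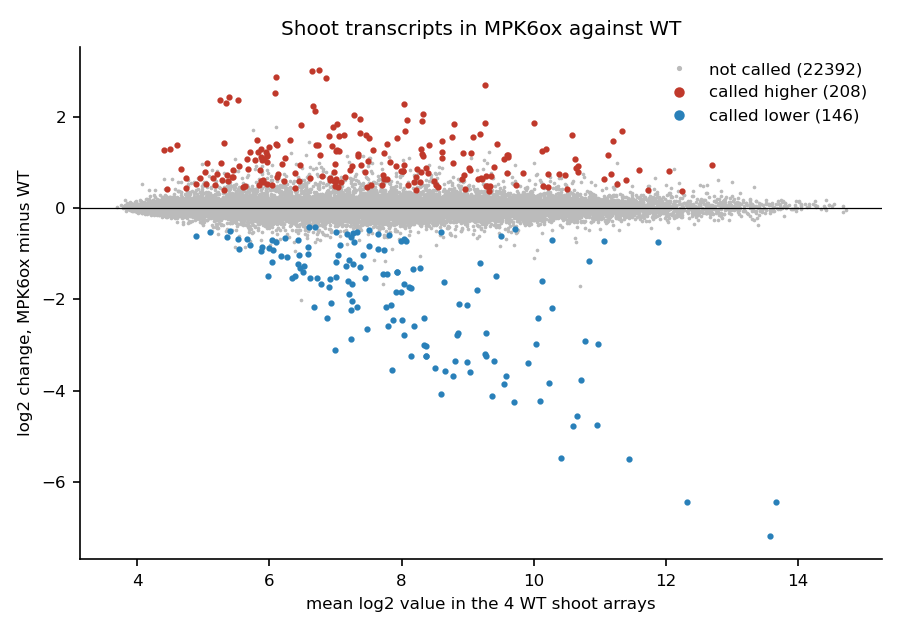
Change in MPK6ox shoots (log2, MPK6ox minus WT, vertical axis) against the mean log2 value in the 4 WT shoot arrays (horizontal axis) for 22746 probe sets, grey where not called, red for 208 called higher and blue for 146 called lower. The largest falls start from WT values well above the bulk and reach past -6, while the largest rises stay near 3.

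Among the falls, M17 had 5.47 and 5.63 in the hypoxia arrays and 6.18 and 6.27 in the normoxia arrays of MPK6ox, against 11.998 and 12.50 in hypoxia and 12.08 and 12.72 in normoxia of WT. The 4 MPK6ox arrays were thus far below the 4 WT arrays in both treatments. The log2 change was -6.44 ± 0.18 (SE), with an adjusted p of 1.18e-06. The transcript lay at the 98.4th percentile of the arrays in WT shoots and below the array median in MPK6ox.

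BGLU19 had 5.90 and 5.46 in hypoxia and 5.94 and 6.44 in normoxia of MPK6ox, against 11.02 and 11.66 in hypoxia and 11.27 and 11.79 in normoxia of WT. No MPK6ox array came near a WT array. Its change was -5.50 ± 0.20 (SE), with an adjusted p of 3.69e-06. BGLU19 is one of the 19 genes of a list of seed storage and oil body genes, of which 5 were measured. The list was chosen with earlier results of these data known, so counts of its members are description only.

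4 of these 5 seed genes fell, none rose, and their median change was -3.25, where 0.642% of all probe sets were called lower. The others that fell were AT2G28490 (-5.46), AT4G36700 (-3.25) and PAP85 (-2.44), a vicilin-like seed protein. PAP85 had 5.36 and 5.36 in hypoxia and 5.28 and 5.69 in normoxia of MPK6ox, against 7.45 and 8.05 in hypoxia and 7.64 and 8.32 in normoxia of WT. The fifth gene, OLEO3, encodes an oil body protein and averaged 5.21 ± 0.17 in MPK6ox and 5.37 ± 0.15 in WT (SD, n = 4 each). It lay low on the arrays of both genotypes. Averaged over the 5 genes, MPK6ox shoot arrays ranged from 5.08 to 5.48 and WT shoot arrays from 8.33 to 9.01. Whether seed tissue was among the harvested material was not tested. In these bulk samples fewer cells of a type and less transcript per cell cannot be told apart.

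LEA proteins accumulate in drying seeds and protect cells during water loss. In MPK6ox shoots 4 of 7 measured genes matched as LEA or dehydrin by symbol or synonym fell, 5 with the replicate block, and none rose. M17 and LTI30, given with the list below, are not among the 7. Over all probe sets 0.642% were called lower. LEA18 had 4.23 and 4.21 in hypoxia and 4.46 and 4.28 in normoxia of MPK6ox, against 7.75 and 7.89 in hypoxia and 7.40 and 8.36 in normoxia of WT, a change of -3.56 ± 0.18 (SE, adjusted p of 2.02e-05). AtLEA4-1 had 5.09 and 5.02 in hypoxia and 5.42 and 4.94 in normoxia of MPK6ox, against 8.25 and 8.40 in hypoxia and 8.40 and 8.43 in normoxia of WT, a change of -3.25 ± 0.11 (SE). In neither gene did the genotypes overlap. The remaining falls were smaller, at -1.43 for LEA4-5 and -1.48 for LEA.

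A list of 22 LEA and abscisic acid response genes, 6 of them measured, held 3 falls and no rise, with a median of -0.71. Over all probe sets 0.642% were called lower and 0.914% higher. This list was likewise chosen with earlier results of these data known. The falls were M17, LEA4-5 and the dehydrin gene LTI30 (-1.30 ± 0.14 SE, adjusted p of 0.00217), which responds to cold and abscisic acid. Its other measured members did not pass: COR15A had a change of 0.23, COR15B of -0.11 and COR47 of -0.10. COR47 was abundant in both genotypes, at 12.51 ± 0.13 in MPK6ox and 12.61 ± 0.28 in WT (SD, n = 4 each).

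Vacuolar processing enzymes are proteases that mature proteins in the vacuole, and were taken up as a group after their values were seen. DELTA-VPE, known from the seed coat, had 5.54 and 5.85 in hypoxia and 5.62 and 5.49 in normoxia of MPK6ox, against 9.15 and 8.60 in hypoxia and 9.04 and 9.18 in normoxia of WT. BETA-VPE, which processes seed storage proteins, had 6.91 and 7.10 in hypoxia and 7.01 and 7.21 in normoxia of MPK6ox, against 9.59 and 10.08 in hypoxia and 9.96 and 10.50 in normoxia of WT. Both fell without overlap, DELTA-VPE with a change of -3.37 ± 0.14 and BETA-VPE of -2.98 ± 0.15 (SE). GAMMA-VPE, the enzyme of vegetative organs, rose by 0.64 (adjusted p of 0.00387), and ALPHA-VPE did not pass.

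Isocitrate lyase (ICL) is an enzyme of the glyoxylate cycle, with which seedlings turn stored oil into sugar. It had 5.70 and 5.53 in hypoxia and 5.19 and 5.29 in normoxia of MPK6ox, against 8.86 and 9.30 in hypoxia and 8.70 and 9.25 in normoxia of WT. The MPK6ox arrays were 12.1-fold lower on average, with an adjusted p of 6.05e-06. PDF2.1, a gene of the defensin family, had 5.47 and 5.86 in hypoxia and 5.63 and 5.89 in normoxia of MPK6ox, against 9.36 and 9.87 in hypoxia and 9.22 and 9.78 in normoxia of WT. Its change of -3.84 ± 0.17 (SE) was again free of overlap.

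The other genes among the 15 largest falls are given by locus, since no name was annotated for them here. They were AT1G04560 (-4.78), AT3G54940 (-4.25), AT3G02480 (-4.12), AT3G17520 (-3.68), AT1G54870 (-3.67), AT1G47980 (-3.39) and AT5G07330 (-3.34), with adjusted p of 0.00142 or less. Over all 15, MPK6ox means lay between 4.30 and 6.52 and WT means between 7.85 and 12.32. In rank on the array this was the 4.06th to 44.8th percentile in MPK6ox and the 62nd to 98.4th in WT. 4 of the 15 averaged below the lowest lower quartile of the arrays in MPK6ox, and the files hold no detection calls, so folds of such dim transcripts are ratios of deposited values.

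**Figure D2:**
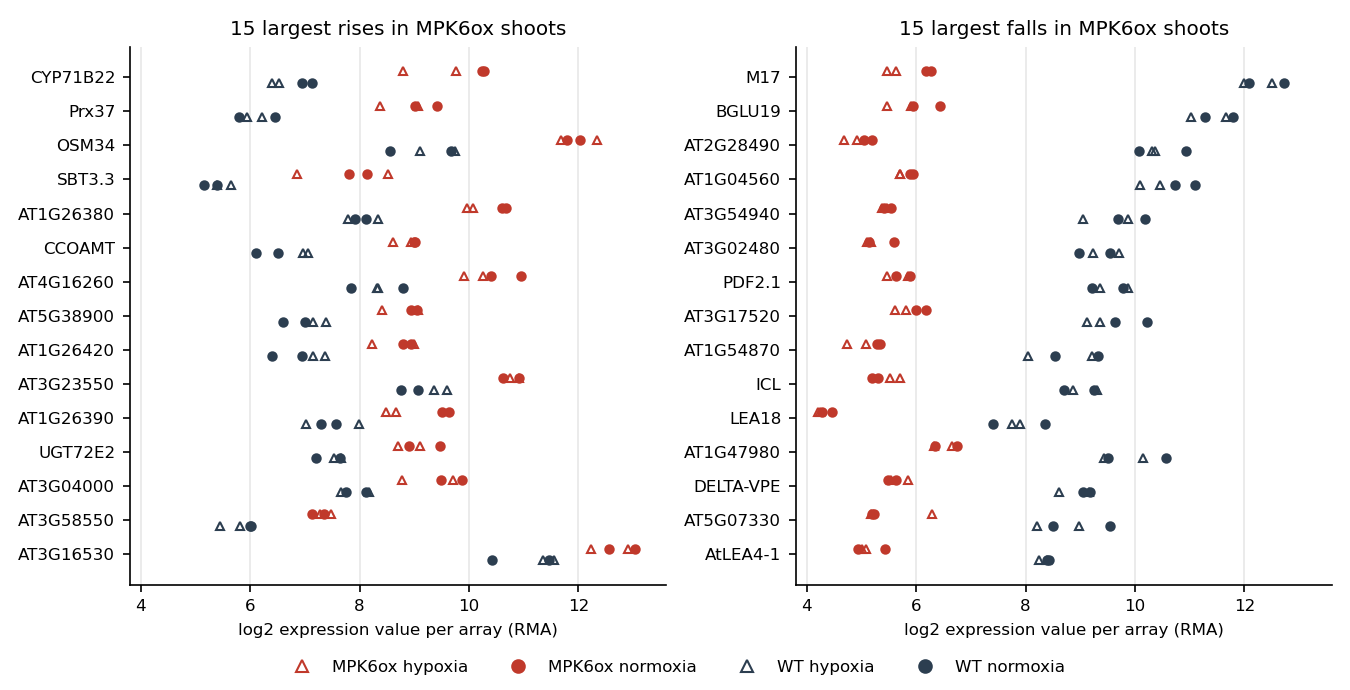
Log2 values per array of the 15 genes with the largest rises (left) and the 15 with the largest falls (right) in MPK6ox shoots, red for MPK6ox above and dark for WT below in each row, open triangles for hypoxia and filled circles for normoxia. Within a treatment no MPK6ox array overlaps a WT array in any of the 30 genes, which was a condition for choosing them. The falls end between 4.2 and 6.8 in MPK6ox whatever the WT level.

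Among the rises, CYP71B22 had 8.79 and 9.77 in hypoxia and 10.24 and 10.26 in normoxia of MPK6ox, against 6.52 and 6.40 in hypoxia and 7.12 and 6.94 in normoxia of WT. All MPK6ox arrays were above all WT arrays, and the change was 3.02 ± 0.20 (SE, adjusted p of 1.04e-04). A second P450 of the same subfamily, CYP71B6, rose by 1.07 (adjusted p of 0.0449). These were the 2 calls among 24 measured cytochromes P450 matched by symbol or synonym, mostly of the same subfamily. Their median change was 0.09, and 0.914% of all probe sets were called higher. CYP71B24 (1.204) and CYP71B23 (1.13) did not pass without the replicate block and passed with it, at adjusted p of 0.00515 and 6.36e-04, and the block called 5 of the 24, all higher.

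Prx37 belongs to the class III peroxidases of the cell wall. It had 8.38 and 9.06 in hypoxia and 9.00 and 9.42 in normoxia of MPK6ox, against 6.21 and 5.95 in hypoxia and 5.79 and 6.46 in normoxia of WT. The genotypes did not overlap, and the change was 2.87 ± 0.21 (SE, adjusted p of 1.97e-04). It was the only call among 6 measured peroxidases of this class matched by symbol or synonym, which may not be all on the array. Over all probe sets 0.914% were called higher and 0.642% lower. With the replicate block, which called 709 of all 22746 probe sets, AT5G66390 (-0.61) and PRX52 (-0.75) were called lower as well.

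OSM34 belongs to the osmotin and thaumatin-like family, which includes pathogenesis-related proteins. It had 11.68 and 12.34 in hypoxia and 11.79 and 12.03 in normoxia of MPK6ox, against 9.11 and 9.74 in hypoxia and 8.55 and 9.67 in normoxia of WT without overlap. The change was 2.69 ± 0.26 (SE, adjusted p of 0.00106). The chitinase gene ChiC moved the other way, with 7.76 and 8.25 in hypoxia and 7.83 and 8.46 in normoxia of MPK6ox, against 10.50 and 10.34 in hypoxia and 9.83 and 10.41 in normoxia of WT. The change of ChiC was -2.19 ± 0.20 (SE, adjusted p of 6.64e-04). Thus of 4 measured pathogenesis-related genes matched by symbol or synonym 1 rose and 1 fell. Over all probe sets 0.914% were called higher and 0.642% lower.

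SBT3.3, a subtilase linked to immune priming in Arabidopsis, had 6.85 and 8.52 in hypoxia and 7.80 and 8.13 in normoxia of MPK6ox, against 5.64 and 5.39 in hypoxia and 5.15 and 5.39 in normoxia of WT. The MPK6ox hypoxia arrays differed from each other by more than those of normoxia, but both were above every WT array. Its change was 2.43 ± 0.32 (SE, adjusted p of 0.00604). It was the 1 call among 7 measured subtilases matched by symbol or synonym, where 0.914% of all probe sets were called higher.

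In phenylpropanoid metabolism 2 of 7 measured list genes rose and none fell, where 0.914% of all probe sets were called higher. CCOAMT, named for caffeoyl-CoA methyltransferase, had 8.61 and 8.94 in hypoxia and 8.99 and 9.02 in normoxia of MPK6ox, against 7.05 and 6.96 in hypoxia and 6.10 and 6.51 in normoxia of WT, a change of 2.23 ± 0.19 (SE, adjusted p of 5.97e-04). ALDH2C4, an aldehyde dehydrogenase that forms ferulic and sinapic acid, had 11.35 and 11.64 in hypoxia and 11.71 and 11.69 in normoxia of MPK6ox, against 10.53 and 10.64 in hypoxia and 10.79 and 10.70 in normoxia of WT. Its change was 0.93 ± 0.09 (SE, adjusted p of 8.20e-04), and the genotypes did not overlap. The flavonoid and anthocyanin genes of the list, such as DFR (-0.07) and UGT78D2 (-0.12), did not pass, and the median of the 7 was 0.15.

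UDP-glycosyltransferases attach sugars to small molecules. Of 51 measured members 5 rose and none fell, where 0.914% of all probe sets were called higher. Their median was 0.06, and the replicate block called 9 higher and 1, UGT76B1 (-1.15), lower. UGT72E2, which glucosylates monolignols, had 8.71 and 9.11 in hypoxia and 8.90 and 9.47 in normoxia of MPK6ox, against 7.53 and 7.66 in hypoxia and 7.20 and 7.64 in normoxia of WT. The arrays did not overlap, and the change was 1.54 ± 0.17 (SE, adjusted p of 0.00264). Its relative UGT72E1 rose by 0.49, whereas UGT72E3 had a change of 0.04. The other 3, UGT71B6, UGT71C2 and UGT73D1, changed by 0.52 to 0.68, and these and UGT72E1 were close to the threshold, with adjusted p of 0.0228 to 0.0430.

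Defensins were divided. Of 13 measured members 2 rose and 2 fell, where 0.914% of all probe sets were called higher and 0.642% lower. The median was 0.03. PDF1.4 (0.70, adjusted p of 0.0480) and PDF1.2 (0.60, adjusted p of 0.0398) rose, while PDF2.1 and LCR67 (-1.62, adjusted p of 0.0451) fell. PDF1.2, a gene induced by jasmonate and ethylene, was the 1 call among 3 measured jasmonate genes. PDF1.2b (0.84) passed with the replicate block alone (adjusted p of 0.00595), and signals of such similar copies may not be fully separate on the array.

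A run of genes without a name here stood side by side on chromosome 1. AT1G26380 had 10.07 and 9.95 in hypoxia and 10.67 and 10.61 in normoxia of MPK6ox, against 8.33 and 7.79 in hypoxia and 7.91 and 8.12 in normoxia of WT, a change of 2.29. AT1G26390 (1.61), AT1G26410 (0.92) and AT1G26420 (1.77) rose too, all within 5 places in the annotated gene order, while AT1G26400, which lies among them, had a change of 0.10 and did not pass. Apart from genes that are themselves among the 30 with the largest changes, 30 direct neighbours of these genes were measured, and 1 of them, AT1G26410, was called, where 1.56% of all probe sets were. Among all 188 called genes with a place in the annotation, 13 pairs lay within 5 genes of each other, and 9 of the pairs changed in the same direction. The pairs of the run above are among these 9. How many pairs of tested genes lie as close, or share a direction, was not counted, so these counts are description only. The remaining largest rises were AT4G16260 (2.06), AT5G38900 (1.84), AT3G23550 (1.61), AT3G04000 (1.53), AT3G58550 (1.49) and AT3G16530 (1.48).

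Lists closer to the kinase itself were thinly covered by the gene names used here. Of the MPK6 cascade 2 of 19 genes were measured under such a name, and of the defence targets 3 of 14. Others may be among the tested probe sets without a name here. The lists held no call, which is no result about them when 1.56% of all probe sets were called. EIN3, the ethylene transcription factor, averaged 11.26 ± 0.27 in MPK6ox and 11.18 ± 0.18 in WT, and SPCH, which starts the stomatal lineage, 5.36 ± 0.29 in MPK6ox and 5.21 ± 0.23 in WT (SD, n = 4 each). The measured defence targets WRKY22 (0.13), WRKY53 (0.20) and STZ (0.32) did not pass. None of 4 stomatal lineage genes, 8 photosynthesis genes, 21 low-oxygen genes, 3 root markers or 2 salicylic acid genes was called, and their medians were between 0.05 and 0.20 with that of the defence targets included. Among larger families no call was found for 42 MADS-box genes, 19 expansins, 14 glutathione transferases, 10 xyloglucan endotransglucosylases, 9 calmodulin-like genes and 7 WRKY factors, and of these the replicate block called GSTU27 (0.41) and WRKY6 (0.74) higher. Of 27 photosystem and light-harvesting genes 1 rose, LHCB4.3 (0.61, adjusted p of 0.0293).

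**Figure D3:**
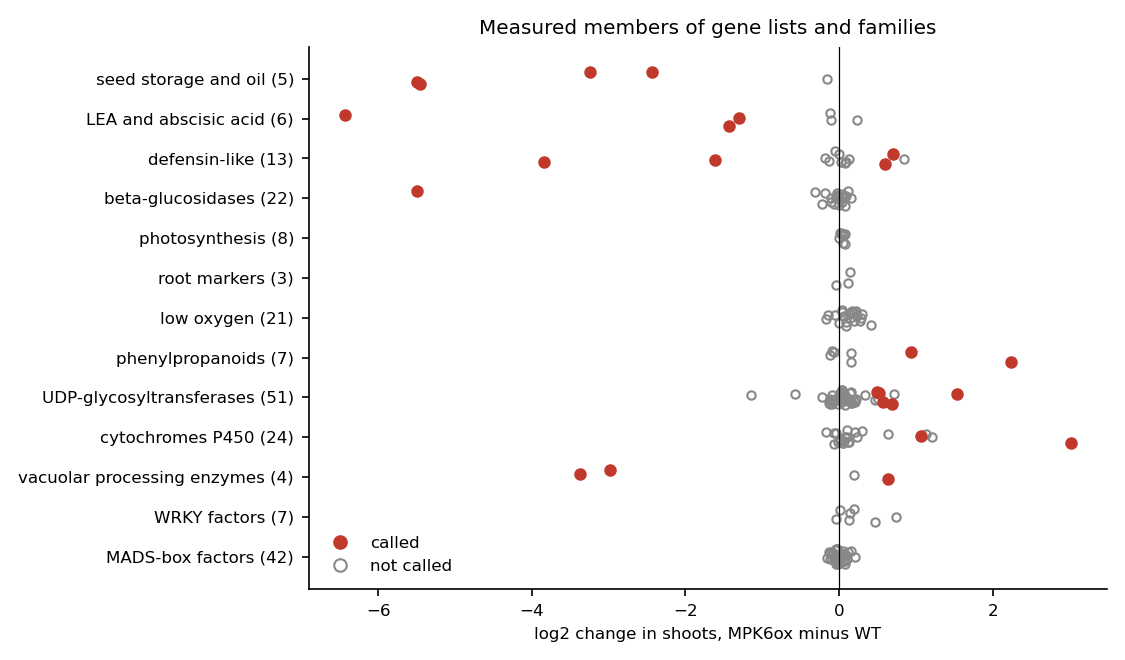
Log2 change in shoots (MPK6ox minus WT, horizontal axis) of the measured members of gene lists and families (rows, number measured in brackets), filled red where called and open grey where not. Seed, LEA and vacuolar processing genes spread to the left, single P450, phenylpropanoid and glycosyltransferase genes to the right, and photosynthesis, root marker and MADS-box genes stay close to 0.

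MPK6ox was compared with WT within each treatment. Hypoxia alone gave 90 calls (0.396%), 24 higher (0.106%) and 66 lower (0.29%), and normoxia alone 149 calls (0.655%), 57 higher (0.251%) and 92 lower (0.404%). The replicate block gave 223 in hypoxia and 337 in normoxia. These 2 comparisons use different arrays but share one estimate of the spread. 83 probe sets were called in both, and every probe set called in one treatment had the same sign in the other, as did 60.1% of all tested. No probe set passed the test of the difference between treatments in limma (0%), with or without the block, and 275 (1.21%) had an unadjusted p under 0.05. M17 changed by -6.69 in hypoxia and -6.18 in normoxia, BGLU19 by -5.66 in hypoxia and -5.34 in normoxia. CYP71B22 changed by 2.81 in hypoxia and 3.22 in normoxia, and 14 of the 15 largest rises, against 7 of the 15 falls, were larger in size in normoxia, without passing the test of the difference.

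**Figure D4:**
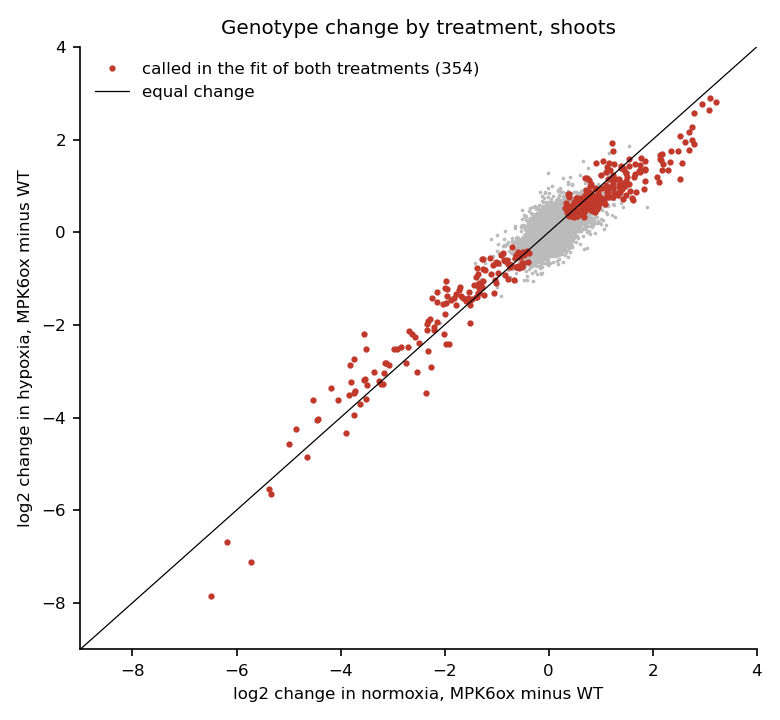
Log2 change of MPK6ox against WT in hypoxic shoots (vertical axis) and in normoxic shoots (horizontal axis), red for the 354 probe sets called in the fit of both treatments, grey for the others, with the line of equal change. The called probe sets lie along the line on both sides of 0, and the rises tend to sit below it, larger in normoxia.

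The mpk6 knockout offered another set of shoots, and this comparison reuses the MPK6ox arrays. Against mpk6, 314 probe sets were called (1.38%), 204 higher (0.897%) and 110 lower (0.484%), and 921 with the replicate block. All 15 of the largest falls against WT were also lower against mpk6, with changes of -4.83 to -1.92, and 14 of the 15 rises were higher. The change of UGT72E2 was 1.09, with an adjusted p of 0.0866 without the block and 2.28e-04 with it, so that all 15 passed with the block. The mpk6 mean lay between those of MPK6ox and WT for all 15 falls and for 4 of the 15 rises. M17 averaged 5.89 in MPK6ox, 10.72 in mpk6 and 12.32 in WT, and the 5 seed genes averaged 7.61 to 8.18 on the mpk6 arrays.

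The root arrays allowed a test of which changes differed between organs. The difference of the MPK6ox effect, shoots minus roots, was called for 26 probe sets (0.114%), 14 higher (0.0615%) and 12 lower (0.0528%), and for 34 with the replicate block. CYP71B22 averaged 6.09 ± 0.42 in MPK6ox roots (SD, n = 5) and 5.81 ± 0.10 in WT roots (SD, n = 4), so that its difference between organs was 2.79 ± 0.25 (SE, adjusted p of 5.15e-05). SBT3.3 averaged 5.08 in MPK6ox roots and 4.90 in WT roots, with a difference of 2.25 (adjusted p of 0.00723). Prx37 was already high in roots, at 9.65 in MPK6ox and 9.01 in WT, with a difference of 2.29 (adjusted p of 0.0124). AT3G23550 was the fourth of the 15 rises with such a difference, at 1.33 (adjusted p of 0.0321). The 15 rises were chosen by their change on the same shoot arrays that enter this difference, which tends to enlarge it. How many of them passed is therefore description only, and the same limit holds for the falls in the next paragraph.

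The falls of ChiC and LTI30 also differed between organs, by -2.58 and -1.26 (adjusted p of 0.00882 and 0.0149). ChiC averaged 10.2 in MPK6ox roots and 9.92 in WT roots, and LTI30 11.2 in MPK6ox roots and 11.3 in WT roots. In contrast, none of the 15 largest falls passed the test of the difference between organs, whose adjusted p ranged from 0.666 to 1, which does not show that the effects are equal. The MPK6ox effect on them in roots was -7.47 to -1.82. M17 averaged 4.11 ± 0.14 in MPK6ox roots (SD, n = 5) and 11.56 ± 0.71 in WT roots (SD, n = 4). The mpk6 roots were also below WT roots, with M17 at 5.33 and 8.11 in hypoxia and 9.85 and 6.54 in normoxia. The photosynthesis genes averaged 7.13 to 10.52 on MPK6ox root arrays and 7.82 to 9.95 on WT root arrays, and the part of shoot tissue in the root samples in these differences was not tested.

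**Figure D5:**
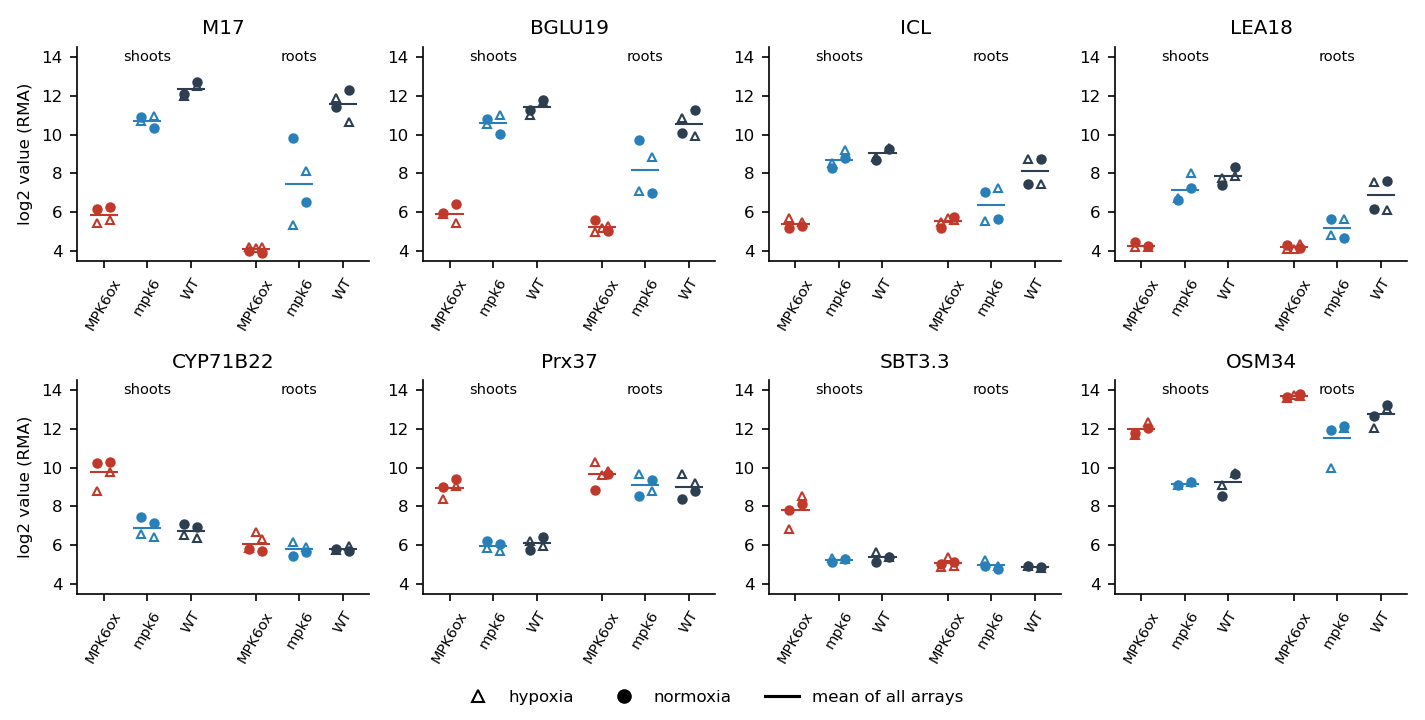
Log2 values per array of 4 genes that fell (upper row) and 4 that rose (lower row) in MPK6ox shoots, for MPK6ox, mpk6 and WT in shoots (left of each panel) and roots (right), open triangles for hypoxia, filled circles for normoxia and bars for means. M17, BGLU19, ICL and LEA18 are low in MPK6ox in both organs, and in roots mpk6 also lies below WT. CYP71B22 and SBT3.3 are high in MPK6ox shoots and low in roots of all 3 genotypes.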

How the data were processed

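RNA of MPK6ox, mpk6 and WT shoots and roots was hybridised to ATH1 arrays after 2-cycle labelling, per the labels' protocols. The deposited values are log2 expression values, made by the authors with RMA per the submitters' processing notes; the version, background settings and genome build are not given in the sources used here. As usually run, RMA brings arrays to one distribution, so shifts common to all genes cannot be seen. Of 22810 probe sets 64 control sets were left out. Of the 22746 tested, 13513 carried 1 gene, 503 several and 8730 had a gene not used here; names came from the platform annotation, updated through TAIR10.1 gene IDs. Families were matched by symbol and synonym, with patterns widened after values were seen. Of 347 list genes 75 were measured, each by its brightest probe set. Measured here means found under a gene name used here, so the others may still be on the array.

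Models were fitted with limma 3.58.1 in R 4.3.3 (lmFit, eBayes, Benjamini-Hochberg over all probe sets, threshold 0.05): MPK6ox and WT shoots with treatment as covariate; group means for each treatment and their difference; MPK6ox against mpk6; all 25 arrays for the organ difference. With 2 arrays a group, the number of arrays limits precision. Labels call replicates biological. Same-numbered arrays deviated together (correlations 0.214 to 0.648 in all pairs of the 4 shoot groups), so the block of replicate numbers is given where it moved a count. The methods were tested on simulated data. Named were the 15 largest rises and falls with 1 gene and no overlap in either treatment, up to 5 each way in the other comparisons, called members of lists and families, and annotated neighbours. The members and lists were chosen with earlier results of these data known. Alternatives were other arrays in the fit, weights, normalization, filters, trend and leaving out each array. No sequences were used.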

Additional observations from a re-analysis of the deposited data

Results flagged for a closer look

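The following effects of MPK6ox differed between shoots and roots by a test of the difference itself in the fit of all 25 arrays, and each value is the effect in shoots minus that in roots on the log2 scale. Positive differences were 2.79 for CYP71B22, 2.29 for Prx37, 2.25 for SBT3.3, 1.69 for AT1G62290 and 1.57 for AT4G24480. For AT1G62290 and AT4G24480 the effect in shoots did not pass (0.04 and -0.39), and the effect in roots was -1.65 and -1.96. Negative differences were -3.67 for AT4G33720, -2.63 for AT4G15390, -2.58 for ChiC, -1.59 for AT3G08820 and -1.26 for LTI30. AT4G33720 averaged 5.64 in MPK6ox and 5.55 in WT shoots, and 10.8 in MPK6ox and 6.99 in WT roots. AT4G15390 fell in shoots (-2.40), with 7.67 in MPK6ox and 10.1 in WT, whereas roots had 12.9 in MPK6ox and 12.7 in WT. AT3G08820 rose in shoots by 1.01 and had a root effect of 2.60. Prx37 missed the threshold in 2, LTI30 in 5 and AT1G62290 in 14 of 22 alternative settings.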

How the results depend on the processing

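No change among the 354 called probe sets turned its sign under any setting run. The replicate block raised the count to 709, with 223 in hypoxia, 337 in normoxia and 921 against mpk6, and gave 34 for the organ difference and 0 for the difference between treatments. Other settings gave 270 to 483 calls for MPK6ox against WT. Leaving out each array in turn gave 201 to 387 calls for it, 34 to 90 in hypoxia, 47 to 141 in normoxia, 134 to 304 against mpk6, 16 to 30 for the organ difference and 0 for the difference between treatments; a group then holding 1 array is assumed to vary like the others. The count for MPK6ox against WT was 201 and 206 without MPK6ox normoxia replicates 1 and 2, 225 without MPK6ox hypoxia replicate 2 and 223 without WT normoxia replicate 2. In hypoxia it was 58 and 34 without MPK6ox replicates 1 and 2, and 52 and 39 without WT replicates 1 and 2; in normoxia 47 without either MPK6ox replicate, and 92 and 86 without WT replicates 1 and 2. Against mpk6 it was 169 and 134 without MPK6ox normoxia replicates 1 and 2, 193 without MPK6ox hypoxia replicate 2, 188 without mpk6 normoxia replicate 1 and 198 without mpk6 hypoxia replicate 2. The organ difference had 17 calls without MPK6ox shoot normoxia replicate 2, 17 without WT shoot hypoxia replicate 2 and 16 without WT shoot normoxia replicate 2. These fits have fewer arrays. The 15 largest falls passed in all 17 settings. Of the rises, AT1G26420 missed the threshold in 1, AT1G26390 in 7 and AT3G16530 in 8 settings; PDF1.2 missed it in 12, PDF1.4 in 11, UGT73D1 in 10, LCR67, CYP71B6, UGT72E1, UGT71C2 and UGT71B6 in 8 each and LHCB4.3 in 7. A search of promoters for motifs was not run, since no promoter sequences were used here. Without detection calls, signal over background was not assessed.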

Other observations

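Further annotated genes that passed the test were chosen here after their values were seen. Lower in MPK6ox shoots were ATOEP16-2, a protein of the outer plastid envelope, with 5.56 in MPK6ox and 8.00 in WT, ARPN, a plantacyanin (-2.10), TET4, a tetraspanin (-1.53), and LBD16, a transcription factor known from lateral root formation (-1.22). Higher were YLS5 (1.25), the peptide gene RALFL18 (0.78), the ubiquitin ligase gene PUB24 (0.68), the asparaginase gene ASPGB1 (0.57), the sugar transporter gene SWEET1 (0.56) and SPT, the transcription factor gene SPATULA (0.50).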
